A study of Mus musculus with 8 samples.

Results

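The 10 genes followed here belong to the erythroid and megakaryocyte lineages, and their accessibility was examined in mouse multipotent progenitors: the transcription factor genes *Klf1*, *Gfi1b*, *Zfpm1* and *Nfe2*, the receptor gene *Epor*, the platelet and megakaryocyte genes *Itga2b*, *Gp9*, *Vwf* and *Pf4*, and the enzyme gene *Car2*. Their members are ATAC-seq peaks centered inside a listed gene or in its flanks, 20 kb upstream and 10 kb downstream, that were closer to this gene than to any other. Closeness was judged by the nearest of 3 points of each transcript, namely its ends and its midpoint. By this rule 50 of 87642 MPP3 peaks and 50 of 86952 MPP4 peaks belonged to the 10 genes, and each gene had at least 1 peak in both cell types.

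MPP3 and MPP4 are bone marrow progenitors with a myeloid and a lymphoid bias. Both were sorted as Lineage-negative, Sca-1-positive, Kit-positive cells without CD150 and with CD48, and MPP4 cells were also Flt3-positive, so the CD150-positive progenitors biased to megakaryocytes and erythroid cells lay outside both gates. ATAC-seq uses the Tn5 transposase to insert sequencing adapters into open DNA, and 5000 cells entered each of 8 libraries. Each cell type had 2 libraries per genotype. The labels give the strain of all mice as C57BL/6, and the paper names the C57BL/6J background. The labels give *Ebf1* WT mice as Ebf1fl/fl Tie2Cre +/+ and *Ebf1* KO mice as Ebf1fl/fl Tie2Cre +/cre. The paper describes *Ebf1* WT mice with wild-type *Ebf1* alleles and Tie2Cre, but its methods also list floxed littermates among the controls. Tie2 drives Cre in endothelial cells and in the blood lineages that arise from them, so the deletion is not limited to the progenitors studied. MPP3 *Ebf1* WT mice were 8 weeks old, MPP3 *Ebf1* KO mice 8 and 9 weeks, MPP4 *Ebf1* WT mice 9 weeks and MPP4 *Ebf1* KO mice 8 weeks. Of the 8 mice 7 were female, and 1 MPP4 *Ebf1* WT mouse was male.

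The level of a peak is the authors' mean log2 CPM, a fragment count scaled to the library total, over the 4 libraries of a cell type. It covers both genotypes and has no value per library, so no level below has an error or a test, and nothing here compares *Ebf1* KO with *Ebf1* WT cells. Long peaks collect more fragments than short ones, and peaks of different genes were therefore compared as log2 CPM per kb of peak. The MPP3 and MPP4 tables were normalized separately. A difference between cell types is the MPP4 minus the MPP3 log2 CPM of peaks that overlap by at least 1 bp, less 0.03, the median of that difference over all 65855 matched peaks. In sorted cells measured in bulk, fewer cells with an open site and fewer insertions per cell cannot be told apart.

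GATA1 with its cofactor FOG1 (encoded by *Zfpm1*) controls both erythroid and megakaryocyte genes, often at sites that also bind TAL1. KLF1 then drives the erythroid program, including globin synthesis, whereas GFI1B and NF-E2 are needed in both lineages and NF-E2 for the release of platelets. Multipotent progenitors can have open chromatin at genes of a lineage before those genes are strongly transcribed.

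The chromatin of the 10 genes was more open than that of the typical peak in both cell types. The median level of their peaks was 4.89 log2 CPM per kb in MPP3 cells, against 4.11 over all peaks, and 4.73 in MPP4 cells, against 4.15. Among peaks of at least 2 log2 CPM the gap in MPP3 cells was 0.44 in place of 0.78. Peaks at a transcript start, with a center within 1 kb of it, had a median of 5.52 in both cell types, against 5.04 over all such peaks. Peaks elsewhere had a median of 4.68 (MPP3) and 4.21 (MPP4), against 3.92 over all other peaks of either table. Levels varied widely among the 10 genes, from 2.89 to 8.26 log2 CPM per kb in MPP3 cells. The lowest was an intron peak of *Vwf* and the highest a peak at the distal start of *Nfe2*.

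Between the cell types, the genes leaned toward MPP3. Of 39 matched pairs of peaks, 25 had a difference below 0 and 14 above 0, with a median of −0.18. At transcript starts 13 of 17 pairs were below 0, and elsewhere 12 of 22. No pair was higher in MPP4 by 1 or more on the log2 scale, against 4.94% of all matched peaks, and 3 pairs (7.69%) were higher in MPP3 by that margin, against 4.1% of all. With an overlap of at least 80% of both peaks, 1 of 30 pairs was higher in MPP3 by that margin, and per kb 2 of 39. The 3 pairs were an intron peak of *Zfpm1*, a peak at an internal start of *Nfe2* and the peak at the start of *Pf4*. The remaining differences lay between −0.86 and 0.83, and with 39 pairs the counts past 1 are small. *Vwf* leaned the other way. Of its 11 pairs 8 were above 0, with a median of 0.19, whereas 22 of the 28 pairs of the other genes were below 0, with a median of −0.31. Per kb 7 of the *Vwf* pairs were above 0 (median 0.14) and the median of the others was −0.24.

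*Klf1* encodes the erythroid Krüppel-like factor. It had 1 peak in each cell type, at chr8:84902933-84903591 in MPP3 cells (mm10) and chr8:84903009-84903646 in MPP4 cells. The peak center lay in exon 2, 1334 bp downstream of the transcript start in MPP3 cells and 1399 bp in MPP4 cells, so *Klf1* was the only gene of the 10 without a peak at any transcript start. Its level was nonetheless high, at 5.53 log2 CPM in MPP3 and 5.31 in MPP4 cells, and per kb at percentiles 92.3 and 89.7 of all peaks of the tables. The centered difference was −0.26. Strong peaks flanked the gene, but were closer to its neighbors. In MPP3 cells a peak closest to *Gcdh* had its center 8056 bp upstream of the *Klf1* start, with a level of 5.17 log2 CPM. A peak closest to *Dnase2a* had its center 6810 bp downstream of the *Klf1* start, with 5.66.

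*Gfi1b* encodes a zinc finger repressor. The peak at its start, chr2:28621710-28622081 in MPP3 cells, had a level of 4.49 log2 CPM in MPP3 and 4.58 in MPP4 cells. A smaller peak with its center 727 bp upstream of the start had 2.98 and 3.14 log2 CPM. Both were near equal between the cell types, with centered differences of 0.06 and 0.12. Away from the start the gene had more peaks in MPP3 than in MPP4 cells. A peak in intron 1, 5469 bp from the start, was found in both (1.84 and 1.31 log2 CPM, difference −0.57). A neighboring peak in the same intron, chr2:28616953-28617180 (2.09 log2 CPM), and a peak 8200 bp upstream, chr2:28630023-28630342 (1.65 log2 CPM), overlapped no MPP4 peak.

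*Zfpm1* had 13 peaks in each cell type, spread over 55111 bp of gene. The peak at its start was the longest of all the members, 922 bp in MPP3 cells (chr8:122281265-122282186), with 7.59 log2 CPM in MPP3 and 6.84 in MPP4 cells and a centered difference of −0.78. Per kb it stood at percentile 99.5 of MPP3 peaks and 98.1 of MPP4 peaks. A pair of peaks followed in intron 1. The nearer peak, chr8:122284300-122284519, was found in both cell types (5.05 and 4.70 log2 CPM). The other, chr8:122284713-122285140, had 5.59 log2 CPM in MPP3 cells, but no MPP4 peak of the table used here overlapped it. That is rare for a peak so open: of the 7372 MPP3 peaks with at least 5 log2 CPM, 5 (0.0678%) overlapped no MPP4 peak. Whether the site is closed in MPP4 cells or its row is missing from the deposited table cannot be told from these values.

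Further into the gene the cell types differed from peak to peak. The peak at chr8:122296652-122297005 in intron 1 had the most negative difference of the members, −1.50, with 3.04 log2 CPM in MPP3 and 1.57 in MPP4 cells. The MPP3 peak is 354 bp long and the MPP4 peak 196 bp, and per kb the difference was −0.60. In intron 3, chr8:122309259-122309706 (3.77 log2 CPM) and chr8:122321656-122321918 (2.82) were found only in the MPP3 table. Intron 4 leaned toward MPP4: the peak at chr8:122323953-122324399 had a difference of 0.47, and that at chr8:122331149-122331589, with 5.04 log2 CPM in MPP3 and 5.52 in MPP4 cells, had 0.44. The peaks found only in the MPP4 table lay 1412 bp upstream of the start (chr8:122280636-122280822, 3.63 log2 CPM) and in intron 1 at chr8:122291623-122291858 (1.66) and chr8:122303004-122303242 (2.18). A second start peak, at a shorter transcript in intron 5 (chr8:122333209-122333454), had 2.77 log2 CPM in MPP3 and 2.69 in MPP4 cells, a difference of −0.12. Over the 10 matched pairs of *Zfpm1*, 8 differences were below 0 and 2 above.

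*Nfe2* encodes the p45 subunit of NF-E2, and its transcripts begin at several places. All 5 of its peaks were matched between the cell types. The peak at the most distal start, chr15:103258226-103258771, had the highest level per kb of all members, 8.26 log2 CPM per kb in MPP3 and 7.97 in MPP4 cells, at percentile 99.9 of either table. Its whole-peak levels were 7.38 and 7.05 log2 CPM, with a centered difference of −0.37. The peak at the start of another transcript, 3000 bp downstream, was lower (4.55 and 4.08 log2 CPM). The peak at another group of starts, 5520 bp downstream (chr15:103252728-103253038), had 3.50 log2 CPM in MPP3 and 2.09 in MPP4 cells, a difference of −1.44 and, per kb, of −1.01. The difference thus varied among the starts of this gene. The peak 1813 bp upstream of the distal start was the only *Nfe2* pair with a difference above 0, at 0.25, but per kb it had −0.24, since the MPP3 peak is 172 bp long and the MPP4 peak 249 bp.

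*Epor* encodes the erythropoietin receptor. Its main peak, chr9:21962455-21962808, lay in intron 1, 875 bp downstream of the start of the longest transcript and 67 bp upstream of a shorter one. It had 3.67 log2 CPM in MPP3 and 3.04 in MPP4 cells, with a difference of −0.66. A peak just upstream of the longest transcript, chr9:21963506-21963699, had 1.91 log2 CPM in MPP3 cells and overlapped no MPP4 peak. Per kb this promoter peak stood at percentile 56 of all MPP3 peaks.

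*Itga2b* encodes the integrin chain CD41, an early marker of blood cells that persists on megakaryocytes and platelets. Its 3 peaks were all high and all matched, and each was at the start of a transcript. The peak at the start of the longest protein-coding transcript, chr11:102469941-102470411, had 5.58 log2 CPM in MPP3 and 4.76 in MPP4 cells, with a difference of −0.86 and, per kb, of −1.01. The other peaks lay in intron 4 (5.34 and 5.13 log2 CPM) and intron 27 (5.08 and 4.81), where shorter transcripts begin, and differed by −0.25 and −0.31. The 5′ end of *Itga2b* thus had the most negative difference of the gene.

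*Gp9*, which encodes the GPIX chain of the platelet receptor for von Willebrand factor, had 2 peaks in each cell type. The peak at its start, chr6:87777834-87778208, had 4.04 log2 CPM in MPP3 and 3.93 in MPP4 cells. The peak in intron 1, chr6:87778682-87778962, had 3.39 and 3.68. The differences were −0.14 and 0.26, and per kb 0.08 and 0.24.

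*Vwf*, the gene for von Willebrand factor, is active in megakaryocytes and endothelial cells and is the longest of the 10 at 139906 bp. It had 14 peaks in MPP3 and 15 in MPP4 cells, but none within 1 kb of the start of its full-length transcript at position 125552948 of chromosome 6. Its highest peak per kb lay 20452 bp inside the gene in intron 6 (chr6:125573221-125573580), with 4.45 log2 CPM in MPP3 and 4.73 in MPP4 cells. Next to it, chr6:125572398-125572957 had 4.02 and 4.36. The peaks classed as start peaks, chr6:125603253-125603592 and chr6:125603750-125604164, lay in exon 14 and intron 14, at the start of a transcript without a coding sequence in the annotation. They had 4.05 and 4.29 log2 CPM in MPP3 and 3.89 and 4.43 in MPP4 cells.

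Most other *Vwf* peaks were weak. The median over the gene was 3.67 log2 CPM per kb in MPP3 and 3.98 in MPP4 cells, below the medians of all peaks. The most positive differences of all the members were in *Vwf*: 0.83 at chr6:125678595-125678848 in intron 45 (1.58 and 2.44 log2 CPM) and 0.71 at chr6:125594856-125595174 in intron 10 (3.01 and 3.76). Peaks found only in the MPP3 table were chr6:125560573-125560864 (1.11 log2 CPM), chr6:125564992-125565217 (1.52) and chr6:125587135-125587367 (1.68). Those found only in the MPP4 table were chr6:125540326-125540488 (1.36), chr6:125548446-125548728 (1.57), chr6:125604531-125604680 (2.91) and chr6:125609172-125609322 (0.81).

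*Pf4* encodes platelet factor 4, a chemokine of platelet granules, and is the shortest of the 10 genes at 949 bp. The peak at its start, chr5:90772320-90772702, had 3.85 log2 CPM in MPP3 and 2.78 in MPP4 cells, with a difference of −1.10. Per kb the levels were 5.23 and 4.31. The flanks differed in which peaks were found. In MPP3 cells there was a peak 3386 bp downstream of the start, chr5:90775672-90775970 (2.91 log2 CPM), that overlapped no MPP4 peak. In MPP4 cells there were peaks 822 bp upstream, chr5:90771523-90771703 (2.28), and 1651 bp downstream, chr5:90773974-90774199 (1.33), that overlapped no MPP3 peak.

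*Car2* encodes carbonic anhydrase II, which is abundant in red cells. The peak at its start, chr3:14886175-14886979, had 5.71 log2 CPM in MPP3 and 5.34 in MPP4 cells. The centered difference was −0.41, but per kb it was 0.03, since the MPP3 peak is 805 bp long and the MPP4 peak 616 bp. A peak 5954 bp upstream had 4.55 and 4.21 log2 CPM per kb. In intron 1 each cell type had a peak of its own, chr3:14887726-14887922 in MPP3 cells (2.58) and chr3:14887351-14887508 in MPP4 cells (3.01), and a weak peak in exon 3, chr3:14894970-14895163 (1.04), was found only in the MPP4 table.

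In each cell type, 39 of the 50 peaks (78%) overlapped a peak of the other table, against 75.7% of all MPP3 peaks and 76.7% of all MPP4 peaks. The 11 peaks found only in MPP3 had a median level of 4.27 log2 CPM per kb, against 3.52 over all peaks found only there, and the 11 found only in MPP4 had 3.98, against 3.45. Peaks at transcript starts made up 36% of the MPP3 and 38% of the MPP4 member peaks, against 26.3% and 26.6% of all peaks. Of the peaks away from transcript starts, 25 in MPP3 and 21 in MPP4 cells lay in introns. The longest protein-coding transcript had a peak at its own start in 8 of the 10 genes in both cell types, all but *Klf1* and *Vwf*. The peaks of the 10 genes had a median GC content of 56.5% in MPP3 and 55.7% in MPP4 cells, against 52.5% and 51.9% over all peaks.

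Motifs were searched on both strands in the 300 bases around each peak center: the GATA words AGATAA and AGATAG with their T forms TGATAA and TGATAG, the KLF word CCNCNCCC, TGAGTCA or TGACTCA for NF-E2, CCGGAAG or AGGAAGT for ETS factors, TGTGGTT for RUNX factors, and TCCCNNGGG or CCCNNGGGA for EBF1. A TAL1-GATA pair was a CTG with a GATA word that starts after a gap of 7 or 8 bases, and its GATA word counts under both. A match is a string of letters and does not show that a factor bound there. In MPP3 cells, 25 of the 50 member windows (50%) held a GATA word, against 31.7% of all peaks, and in MPP4 cells 19 (38%), against 29.5%. At transcript starts the shares were 44.4% in MPP3 and 47.4% in MPP4 cells, against 19.2% and 18.5% of all start peaks. Away from starts they were 53.1% in MPP3 cells, against 36.2% of all other peaks, and 32.3% in MPP4 cells, against 33.5%. With the whole peak searched in place of the window, GATA words were in 40% of the MPP3 and 32% of the MPP4 member peaks. The shares of all peaks were then 30.1% and 28.8%. The KLF word was in 66% of the MPP3 and 56% of the MPP4 windows, against 41.5% and 40.5% of all peaks. At transcript starts the KLF shares were 77.8% and 68.4%, against 61.3% and 60.6% of all start peaks. Away from starts they were 59.4% and 48.4%, against 34.4% and 33.2% of all other peaks. The TAL1-GATA pair was in 4 MPP3 windows (8%) and 3 MPP4 windows (6%), against 3.3% and 2.3% of all peaks.

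ETS words were in 24% of the MPP3 and 20% of the MPP4 member windows, against 25.6% and 27.6% of all, and RUNX words in 10% and 8%, against 12.3% and 13.5%. NF-E2 words were in 3 MPP3 windows (6%) and 5 MPP4 windows (10%), against 8.42% and 8.09%. EBF1 words were in 8 MPP3 windows (16%) and 5 MPP4 windows (10%), against 6.73% and 5.63%. With the whole peak searched in place of the window, the MPP4 share was 18%, against 6.49% of all peaks. KLF and EBF1 words are rich in G and C, as were the member peaks, and the part of base composition in these shares was not tested.

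The TAL1-GATA pair was in the start peaks of *Nfe2*, *Itga2b* and *Pf4* and in the *Zfpm1* intron peak that was found only in the MPP3 table. All MPP3 windows with the pair are shown. They include the highest peak per kb of the 10 genes and the start peaks of *Itga2b* and *Pf4*, with differences of −0.86 and −1.10. Sequences were read from GRCm38 (mm10) on the strand of the gene, and capitals mark the CTG and the GATA word, as CAG and its complement where the pair is on the other strand. The *Nfe2* stretch is chr15:103258491-103258609 (minus strand), with the pair beginning 155 bp upstream of the distal start. The *Itga2b* stretch is chr11:102470138-102470256 (minus strand), with the pair 322 bp upstream of the start. The *Zfpm1* stretch is chr8:122284785-122284903 (plus strand) in intron 1. In all 3 the gap is 8 bases. The *Pf4* stretch, chr5:90772544-90772573 (plus strand), lies in exon 1, with a gap of 7 bases.
Nfe2: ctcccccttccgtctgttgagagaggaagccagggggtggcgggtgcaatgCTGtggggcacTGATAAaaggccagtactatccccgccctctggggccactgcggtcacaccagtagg
Itga2b: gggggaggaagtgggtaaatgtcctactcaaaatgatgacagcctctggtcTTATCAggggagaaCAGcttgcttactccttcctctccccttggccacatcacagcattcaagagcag
Zfpm1: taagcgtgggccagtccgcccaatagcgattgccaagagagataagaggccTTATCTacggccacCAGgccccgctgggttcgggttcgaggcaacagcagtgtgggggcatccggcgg
Pf4: tagaactTTATCTttgggtcCAGtggcacc

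The MPP3 windows with at least 3 GATA words are shown for that count of words. They all belonged to peaks away from transcript starts, and each peak overlapped no MPP4 peak or had a lower level there. The *Zfpm1* intron 3 peak found only in MPP3 cells held 5 words, the *Zfpm1* intron 1 peak with the difference of −1.50 held 4 (3 in its MPP4 window), and the peak downstream of *Pf4* found only in MPP3 cells held 3. The *Epor* promoter peak, found only in MPP3 cells, held 1 and was added by gene. Capitals mark the GATA words on either strand in chr8:122309385-122309613, chr8:122296678-122296906 and chr5:90775717-90775970 (plus strand) and in chr9:21963568-21963687 (minus strand), in this order.
Zfpm1 intron 3: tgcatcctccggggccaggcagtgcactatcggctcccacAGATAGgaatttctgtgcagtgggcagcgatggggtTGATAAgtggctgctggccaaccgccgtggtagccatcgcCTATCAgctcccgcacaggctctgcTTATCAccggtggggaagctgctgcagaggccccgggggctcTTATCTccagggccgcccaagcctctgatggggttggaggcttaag
Zfpm1 intron 1: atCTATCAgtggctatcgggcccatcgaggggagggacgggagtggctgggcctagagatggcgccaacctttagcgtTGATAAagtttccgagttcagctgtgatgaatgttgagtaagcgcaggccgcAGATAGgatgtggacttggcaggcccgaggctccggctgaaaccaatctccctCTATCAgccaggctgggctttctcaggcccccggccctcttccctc
Pf4 downstream: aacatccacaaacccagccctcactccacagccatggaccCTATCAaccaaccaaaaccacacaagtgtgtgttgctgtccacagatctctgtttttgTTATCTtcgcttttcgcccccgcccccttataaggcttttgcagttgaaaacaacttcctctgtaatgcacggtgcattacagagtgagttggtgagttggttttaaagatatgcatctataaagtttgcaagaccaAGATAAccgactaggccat
Epor promoter: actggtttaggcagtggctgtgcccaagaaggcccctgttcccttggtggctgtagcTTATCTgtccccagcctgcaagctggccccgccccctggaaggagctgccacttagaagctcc

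The internal *Nfe2* start peak that was higher in MPP3 cells held no GATA word but 2 KLF words. Likewise, KLF words and no GATA word were in the MPP3 windows of the intron 1 peak of *Epor*, with 3, and of the only *Klf1* peak, with 1. Capitals mark the KLF word, as CCNCNCCC or its complement, in chr15:103252825-103252967 (minus strand), chr9:21962565-21962736 (minus strand) and chr8:84903112-84903197 (plus strand). The first 2 of the *Epor* words overlap.
Nfe2 internal start: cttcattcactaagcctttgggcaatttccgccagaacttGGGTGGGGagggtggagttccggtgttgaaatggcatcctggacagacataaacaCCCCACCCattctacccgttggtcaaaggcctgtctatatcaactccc
Epor intron 1: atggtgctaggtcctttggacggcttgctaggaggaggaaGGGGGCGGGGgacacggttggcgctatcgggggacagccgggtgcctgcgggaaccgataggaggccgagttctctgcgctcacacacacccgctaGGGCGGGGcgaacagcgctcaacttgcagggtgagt
Klf1 exon 2: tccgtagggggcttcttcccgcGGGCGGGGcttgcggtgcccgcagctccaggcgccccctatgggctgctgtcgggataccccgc

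In *Vwf*, the exon 14 start peak held 2 ETS words, and the highest intron 6 peak held an NF-E2 word. Capitals mark these in chr6:125603274-125603437 and chr6:125573383-125573501 (plus strand). The start peak of *Gfi1b* held 2 EBF1 matches that overlap, of which 1 is in capitals in chr2:28621895-28621924 (minus strand, exon 1).
Vwf exon 14, ETS: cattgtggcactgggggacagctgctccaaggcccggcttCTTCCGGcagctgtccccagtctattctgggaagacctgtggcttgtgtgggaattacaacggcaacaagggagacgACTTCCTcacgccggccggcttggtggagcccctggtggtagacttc
Vwf intron 6, NF-E2: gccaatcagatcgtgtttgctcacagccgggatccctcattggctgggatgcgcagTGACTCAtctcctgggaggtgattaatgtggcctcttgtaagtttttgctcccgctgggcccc
Gfi1b exon 1, EBF1: cgagagcagtCCCCAGGGAcagtgtggagg

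Other genes of the lineages were less uniformly open. Of 34 further erythroid genes, 32 lie on autosomes, and *Gata1* and *Alas2* on the X chromosome were not analysed here. Among these 32, 29 had a peak and 27 a start peak in MPP3 cells, and 26 and 23 in MPP4 cells. The median level of their peaks was 4.25 log2 CPM per kb in MPP3 and 4.10 in MPP4 cells, close to that of all peaks. The start peak of *Epb41*, which encodes the membrane skeleton protein 4.1R, was the highest (7.56 log2 CPM per kb in MPP3 and 7.35 in MPP4 cells). Taking the highest start peak of each gene, the lowest were those of *Car1* in MPP3 cells (3.23) and *Epb42* in MPP4 cells (3.10). The globin genes had few and weak peaks. *Hba-x* and *Hbb-bh1* had no peak in either table, and *Hba-a1* and *Hba-a2* no start peak. *Hbb-bs* had a start peak in MPP3 cells (2.00 log2 CPM) and no peak in MPP4 cells, and the start peak of *Hbb-bt* had 1.68 and 1.18 log2 CPM.

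Of the matched MPP3 peaks of these erythroid genes, 11 of 105 (10.5%) were higher in MPP3 by at least 1 and 3 (2.86%) higher in MPP4, against 4.1% and 4.94% of all. Per kb, 7 of these 11 and 1 of these 3 stayed past 1. The largest difference toward MPP3 at a start was that of *Tfr2*, which encodes transferrin receptor 2 (5.74 and 3.76 log2 CPM, difference −2.01). A peak near *Tspan33* had −2.23, and *Gypc*, which encodes glycophorin C, had −2.20 and −1.99 at 2 upstream peaks. Another *Tspan33* peak counts among the 11 with −1.06, but turned per kb (0.17). The peaks past 1 toward MPP4 belonged to *Lmo2* (1.49, per kb 0.39), *Klf3* (1.35) and *Slc4a1* (1.10, per kb 0.19).

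Of 22 further megakaryocyte genes, 20 had a peak and 17 a start peak in MPP3 cells, and 21 and 15 in MPP4 cells. Their median level was 4.64 log2 CPM per kb in MPP3 and 4.58 in MPP4 cells. The highest start peak was that of *Mafg*, which encodes a partner of NF-E2 p45, in MPP3 cells (6.32 log2 CPM per kb) and that of *Tbxa2r*, the thromboxane receptor gene, in MPP4 cells (6.17). Taking the highest start peak of each gene, *Tubb1*, the gene of the platelet β1-tubulin, had the lowest (3.99 and 2.91). Of 65 matched MPP3 peaks, 8 (12.3%) were higher in MPP3 by at least 1 and 6 (9.23%) higher in MPP4. The shares over all matched peaks were 4.1% and 4.94%. Per kb, 4 of these 8 and 2 of these 6 stayed past 1. Platelet genes stood on both sides. *Gp1ba*, the GPIbα gene whose product binds von Willebrand factor together with GPIX, had the largest difference of the lineage lists at its start peak (4.54 and 2.26 log2 CPM, difference −2.31), and *Treml1* (−1.73) and *Tubb1* (−1.27) were also higher in MPP3. The *Cd9* start peak counts among the 8, but it covers 2 shorter MPP4 peaks and was set against only 1 of them. *Plek* (1.85), *Tbxa2r* (1.58), *Clec1b* (1.33), *P2ry12* (1.22) and *Selp* (1.21) had peaks that were higher in MPP4, and *Fli1* had peaks on both sides (−1.30 and 1.42). Per kb the peaks below 1 were, toward MPP4, those of *Tbxa2r* (0.93), *Clec1b* (0.89), *Selp* (0.47) and *Fli1* (0.63) and, toward MPP3, those of *Gp5* (−0.02), *Treml1* (−0.68 and −0.89) and *Cd9*, which turned (0.35).

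For comparison, all 9 myeloid transcription factor genes had a start peak in both cell types. The median over their peaks was 5.27 log2 CPM per kb in MPP3 and 5.15 in MPP4 cells. *Cebpe* held the 3 of 30 matched peaks (10%) that were higher in MPP3 by at least 1, against 4.1% of all matched peaks. At its start peak the direction depends on peak length, with differences of −1.27 and, per kb, of 0.24. The highest start peak was that of *Cebpa* in MPP3 cells (7.23 log2 CPM per kb) and that of *Spi1*, the PU.1 gene, in MPP4 cells (7.15). Taking the highest start peak of each gene, *Cebpe* had the lowest (4.06 and 4.28). Of 10 lymphoid priming genes, 9 had a peak in both cell types. The start peak of *Flt3* was the highest (6.99 log2 CPM per kb in MPP3 and 7.55 in MPP4 cells). By the highest start peak of each gene, *Ccr9*, a chemokine receptor gene, had the lowest (3.27 and 3.87). Their matched peaks had a median difference of 0.15, with 31 of 49 above 0, so they leaned toward MPP4. Centering sets the share below 0 at 50% over all peaks. The myeloid, further erythroid and further megakaryocyte lists also had more differences below 0 than above. The lean toward MPP3 was therefore not particular to the 10 genes, and its size was not tested between lists. Differences were below 0 in 18 of 30 matched peaks of the myeloid genes (median −0.09) and 63 of 105 of the further erythroid genes (−0.11). They were below 0 in 35 of 65 of the further megakaryocyte genes (−0.09), against 25 of 39 of the 10 genes (−0.18).

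Genes of the sort gates were looked up at their transcript starts as a check of the labels. The start peak of *Flt3* was higher in MPP4 than in MPP3 cells (7.01 and 5.92 log2 CPM, difference 1.05 and, per kb, 0.58), and *Kit* and *Cd34* had strong start peaks in both. *Cd48* had a start peak in MPP3 cells (2.77 log2 CPM) that was matched to an MPP4 peak (difference −0.50), which counted under the neighboring transcript *A630035G10Rik*. *Ly6a* (Sca-1) had a weak start peak in MPP4 cells (1.15 log2 CPM) and none in MPP3 cells. Of markers outside the gates, *Ly6g* had no peak and *Cd3e* no start peak in either table. The start peaks of *Slamf1* (CD150) were weak, at 1.42 log2 CPM in MPP3 and 1.33 in MPP4 cells. *Cdh5*, an endothelial gene, had a start peak in both cell types (3.42 and 4.85 log2 CPM, difference 1.39).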

How the data were processed

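The authors trimmed the reads with Cutadapt 2.10, mapped them to mm10, removed duplicates and fragments too long to come from DNA without a nucleosome, called peaks with MACS2 2.2.7.1 on the merged replicates of each condition, took the union of *Ebf1* WT and *Ebf1* KO peaks for each cell type, and fitted the counts with edgeR 3.32.0. From the deposited tables only peak positions and the authors' mean log2 CPM were used. The other columns hold the authors' comparison of *Ebf1* KO with *Ebf1* WT cells (log2 fold change, F statistic, p-value and FDR) and were not used.

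Closest genes were found with GENCODE vM21 and sequences with GRCm38. Exon and intron numbers refer to the protein-coding transcript with the longest span. Matched peaks are reciprocal largest overlaps. Assignment, overlap and motif code was tested on simulated data. All member genes were named, with the highest start peak, the highest other peak per kb, peaks found in 1 table only and pairs that differed by at least 1, and in other lists the genes with the highest and lowest start peak. In those lists a gene with several start peaks was ranked by its highest per kb. Other genes of those lists, such as the globins and those with differences of at least 1, were singled out after their values were seen, as were the peaks whose sequences are shown. The members and lists were chosen with earlier results of these data known. Calculations used Python 3.11.15, numpy 2.4.6, pandas 2.3.3 and scipy 1.17.1. Not all marker genes that were looked up are reported here, and 1 was left out because it is withheld for evaluation.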

Additional observations from a re-analysis of the deposited data

How the results depend on the processing

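Of 44 alternative values, 40 stayed within counting error or within 1.5 times the reported count. Counting every peak in the window of a listed gene, whichever gene was closest, gave 88 MPP3 and 84 MPP4 peaks in place of 50 and 50. With peaks of at least 2 log2 CPM, the median of the MPP3 member peaks exceeded that of all peaks by 0.44 log2 CPM per kb in place of 0.78. With an overlap of at least 80% of both peaks, 1 pair, that of *Pf4*, was higher in MPP3 by at least 1 in place of 3, since the pairs of *Zfpm1* and *Nfe2* overlap less. The cause of the other shifts was not tested. Per kb of peak, 2 pairs passed 1, that of *Nfe2* and the start peak of *Itga2b* (both −1.01), whereas those of *Zfpm1* (−0.60) and *Pf4* (−0.91) did not. No setting gave a pair higher in MPP4 by at least 1, and the median difference stayed between −0.22 and −0.14. No paired analysis was possible because the tables hold no value per library, and for the same reason no replicate could be left out.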
